A study of Homo sapiens with 8 samples.

Results

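SPRR1A, SPRR1B, SPRR3, IVL, TGM1, PI3 and SFN are genes of squamous epithelium and of the cornified envelope, and their transcript levels were followed in a colorectal and a pancreatic cancer line. The set was chosen by the readings of SPRR1B, which earlier results of these data had shown to be high in HT29 clones carrying CD24 shRNA, most of all with 2 vectors. The question was whether related genes followed it. All 7 genes were measured, by 11 probe sets whose only annotated symbol was one of them, among 11963 genes with a single-symbol probe set. SFN had 3 probe sets, SPRR1A and PI3 had 2 each, and the other 4 genes had 1 each.

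The cornified envelope is a shell of cross-linked protein that forms under the plasma membrane of squamous cells as they differentiate terminally. Transglutaminases, TGM1 among them, join its precursors. Involucrin (IVL) serves as an early scaffold, and the small proline-rich proteins (SPRR1A, SPRR1B, SPRR3) act as cross-bridges. PI3 encodes elafin, an elastase inhibitor that is itself a transglutaminase substrate, and SFN encodes 14-3-3 sigma, an epithelial adaptor protein and a known p53 target. Colon and pancreatic duct are lined by simple epithelium, which builds no cornified envelope.

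Both lines are established human cell lines, HT29 from a colorectal and Colo357 from a pancreatic carcinoma. Each of 8 RNA samples was hybridised to 1 Affymetrix human GeneChip array. The samples were 2 HT29-derived clones with 2 vectors expressing CD24-directed shRNA, 1 HT29-derived clone with a vector expressing CD24-directed shRNA (called the 1-vector clone), an HT29-derived clone with GFP-directed shRNA, HT29 given SWA11, a monoclonal antibody to CD24, untreated HT29, Colo357 given the same antibody, and untreated Colo357. The antibody was used at 1 to 40 for 72 h, and untreated cells were its comparison, with no control-antibody array analysed here. All groups other than the 2-vector clones had 1 array, each shRNA array was 1 clone, and the labels do not say whether cultures were independent, so differences between clones and effects of an shRNA cannot be told apart.

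Median intensity per array lay between 32.4 and 63.1, and the trimmed mean was 250.1 on each of the 8 arrays. The mean log2 value of CD24 over its 6 probe sets was 7.78 and 8.39 in the 2-vector clones and 8.40 in the 1-vector clone, against 11.56 in the GFP clone and 11.25 in parental HT29, in the direction of the labels. The first 2-vector array stood apart in RNA controls, where the 3′ to 5′ ratio of ACTB was 1.77 (1.06 to 1.17 elsewhere) and the 18S rRNA 3′ probe set read 434.8 (14.7 to 48.0 elsewhere). Of 8 colon markers, EPCAM, KRT20, LGALS4 and VIL1 exceeded the median of all probe sets in parental HT29, while the intestinal transcription factors CDX2 and CDX1 read at most 13.1 on the 6 HT29 arrays. VIL1 lay below that median (27.9 and 25) in both 2-vector clones, and LGALS4 read 53.6 and 32.5 there. The GFP clone was also below the parental line, at 105.5 against 439.3 for VIL1 and 584.5 against 4581.5 for LGALS4. KRT20 went the other way, at 4723.0 and 4799.8 with 2 vectors, 2761.4 with GFP shRNA and 1117.1 without shRNA or antibody. EPCAM stayed above the median with 2 vectors (1613.6 and 2420.9), against 4027.6 for the parental line. Colo357 read high for KRT7, KRT19, EPCAM and MUC1. The squamous keratins KRT5 and KRT14 read at most 16.0 on the HT29 arrays, while the squamous markers KRT10 and TRIM29 read 874.0 to 1492.0 and 59.6 to 1528.4 there.

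Promoter sequences are shown for SPRR1A and SPRR1B, which were high in the same clones, and for their chromosome 1 neighbours SPRR3 and IVL, which were not. They are RefSeq sequences of build GRCh38.p14, read 5′ to 3′ on the plus strand, and cover the 200 bases before each gene's start. Capitals mark matches to TGANTCA, the AP-1 binding sequence with a free middle base, searched on both strands.
SPRR1A: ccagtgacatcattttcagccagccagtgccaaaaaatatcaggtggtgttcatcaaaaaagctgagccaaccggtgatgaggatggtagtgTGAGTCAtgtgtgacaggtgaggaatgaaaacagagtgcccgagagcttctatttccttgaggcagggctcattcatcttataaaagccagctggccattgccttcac
SPRR1B: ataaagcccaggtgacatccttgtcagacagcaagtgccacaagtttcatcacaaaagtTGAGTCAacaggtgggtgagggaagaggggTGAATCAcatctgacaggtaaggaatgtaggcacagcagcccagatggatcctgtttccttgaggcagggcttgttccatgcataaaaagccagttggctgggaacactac
SPRR3: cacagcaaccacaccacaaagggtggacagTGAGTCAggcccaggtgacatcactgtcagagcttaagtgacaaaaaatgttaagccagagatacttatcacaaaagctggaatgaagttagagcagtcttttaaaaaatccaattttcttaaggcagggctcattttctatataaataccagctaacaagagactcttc
IVL: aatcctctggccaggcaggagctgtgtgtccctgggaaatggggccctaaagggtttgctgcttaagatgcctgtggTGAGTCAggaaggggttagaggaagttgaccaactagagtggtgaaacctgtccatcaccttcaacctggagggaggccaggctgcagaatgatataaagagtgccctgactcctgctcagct

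These windows lie at chr1:152983881-152984080 (SPRR1A), chr1:153031003-153031202 (SPRR1B), chr1:153001549-153001748 (SPRR3) and chr1:152908346-152908545 (IVL). TGANTCA was present in all 5 of the 7 genes with a promoter in the table, SFN being the fifth, against 5.38% of 35116 promoters of the same length. SPRR1B held 2 matches, starting 141 and 111 bases before the gene, SPRR1A 1 at 108, IVL 1 at 123 and SPRR3 1 at 170. The narrower TGAGTCA, searched on both strands after the matches had been seen, was in SPRR1A, SPRR1B, SPRR3 and IVL and in 3.54% of all promoters. The TATA box TATAAA, on both strands, was in SPRR1A, SPRR3 and IVL and in 8.59% of promoters, and the ETS sequence AGGAAG, on both strands, was in IVL, where the first of 2 copies shares a base with the TGAGTCA, and in 23.9%. Each sequence is a letter match only, and genes that differed between clones (SPRR1A, SPRR1B) and genes that stayed dim (SPRR3, IVL) carried the same TGAGTCA.

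SPRR1B, a cross-bridging precursor, had the highest readings of its probe set in the CD24 shRNA clones. It read 3345.2 and 826.7 in the 2-vector clones and 149.5 in the 1-vector clone, against 30.1 in the GFP clone and 10.3 in parental HT29. It read 48.6 in antibody-treated HT29, 7.8 in antibody-treated Colo357 and 9.5 in untreated Colo357. The 3 CD24 shRNA clones lay above all other arrays. These values chose the gene and are given as a description with no test. In bulk RNA, more cells with the transcript and more transcript per cell cannot be told apart.

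The 2-vector clones, the only pair of arrays from 1 group, lay 2.00 apart for SPRR1B on the log2(intensity + 10) scale used for all differences here. In the order of levels the next step, to the 1-vector clone, was 2.39, which belongs to the pattern that chose the gene and is not read against that spread. The 1-vector clone and antibody-treated HT29 lay 1.44 apart and neighbours further down at most 0.98 apart, also as a description. On that scale the 1-vector clone was at 7.32 and parental HT29 at 4.34. Parental HT29 and both Colo357 arrays lay near 10.1, the 25th percentile of all values, and with no detection calls they are not called absent.

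SPRR1A followed SPRR1B. Its probe set 213796_at read 5573.4 and 807.0 in the 2-vector clones and 61.0 in the 1-vector clone, against 12.5 in the GFP clone and 1.8 in parental HT29. It read 4.1 in antibody-treated HT29, 2.3 in antibody-treated Colo357 and 4.4 in untreated Colo357. The order over the 5 shRNA and parental arrays was the same as for SPRR1B. On the log2 scale the 2-vector clones lay 2.77 apart and the lower of them 3.52 from the 1-vector clone, again as a description.

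The other SPRR1A probe set, 214549_x_at, carries the suffix that Affymetrix gives to probe sets that may bind other transcripts. It read 2429.2 and 492.3 in the 2-vector clones and 135.8 in the 1-vector clone, against 81.8 in the GFP clone and 59.0 in parental HT29. On the antibody-treated and untreated Colo357 arrays it read 59.5 and 55.9, and it read 85.2 in antibody-treated HT29. Here the 2-vector clones lay 2.28 apart and the lower of them 1.78 from the 1-vector clone. SPRR1A and SPRR1B are close paralogs, so how far each probe set reads only its own transcript was not tested.

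**Figure D1:**
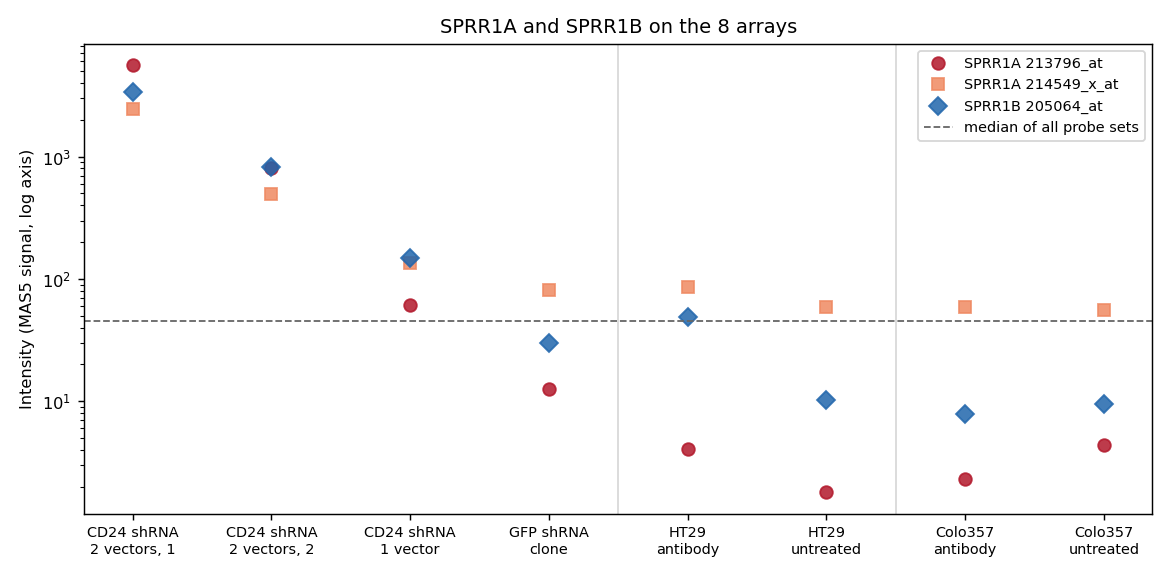
Intensity (MAS5 signal, log axis) of the SPRR1A and SPRR1B probe sets on each of the 8 arrays, 1 point per array and probe set. All 3 probe sets are highest in the first 2-vector clone, then in the second, then in the 1-vector clone, and 214549_x_at stays above the median of all probe sets (45.0) on every array.

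As group means, SPRR1B was 9.58 ± 2.20 (log2, SD, n = 3) in the CD24 shRNA clones and 4.83 ± 0.69 (SD, n = 2) in the GFP clone and parental HT29. For SPRR1A 213796_at the clones averaged 9.42 ± 3.16 and the 2 controls 4.03 ± 0.66, and for 214549_x_at the clones averaged 9.14 ± 2.04 and the controls 6.31 ± 0.29, with the same n. The log2 differences were 4.74, 5.40 and 2.82. Without the first 2-vector clone, the one with the deviating RNA controls, they were 3.68, 3.89 and 1.77. Against the GFP clone alone they were 4.25, 4.93 and 2.62, and against parental HT29 alone 5.24, 5.86 and 3.03.

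Of other measures, a spike-in control separated the clones from the controls, and the squamous marker sums did not. The spike-in control dap (3′ probe set), added RNA of Bacillus, read 667.5 and 405.5 in the 2-vector clones and 916.9 in the 1-vector clone, against 275.2 in the GFP clone and 277.1 in parental HT29. Of 7 measured squamous markers, 2 (KRT10 and TRIM29) exceeded the median on every HT29 array, with sums of 1951.8, 1489.6 and 2478.5 in the clones against 1136.8 in the GFP clone and 2324.8 in parental HT29. The summed level per array, over the 8 arrays, was 108.8 to 199.6 for fibroblast markers and 41.9 to 130.6 for leukocyte markers. The part of the RNA and spike-in controls in the SPRR1A and SPRR1B values was not tested.

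Between 2 vectors and 1 vector, SPRR1B averaged 10.71 ± 1.42 (log2, SD, n = 2) in the 2-vector clones and was 7.32 in the 1-vector clone, a difference of 3.39. The difference was 4.91 for SPRR1A 213796_at and 2.92 for 214549_x_at. Without the first 2-vector clone these were 2.39, 3.52 and 1.78, and without the second they were 4.39, 6.30 and 4.06. Of the 6 member probe sets above the filter, a mean over the compared arrays above the median of all probe sets, these 3 were at 2-fold or more with no overlap, where 5.65% of 10785 probe sets were higher with 2 vectors and 3.78% lower. The order by vectors chose SPRR1B, so nothing is read from this count. The first 2-vector clone read 4.05 times the second for SPRR1B and 6.91 times for SPRR1A 213796_at.

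The other precursors among the members and TGM1 were dim in clones and controls. SPRR3, a cross-bridging protein of oral and oesophageal epithelium, read 45.5 and 24.1 in the 2-vector clones and 19.1 in the 1-vector clone, against 11.7 in the GFP clone and 23.2 in parental HT29, so that clones and controls overlapped. IVL read 28.8, 15.9 and 25.6 in those clones, against 28.0 in the GFP clone and 26.0 in parental HT29. TGM1, the membrane-bound transglutaminase of keratinocytes, read 2.6, 1.8 and 2.0, against 1.7 in the GFP clone and 2.9 in parental HT29. IVL and TGM1 were below the median of all probe sets on each of the 8 arrays, and SPRR3 exceeded it on the first 2-vector array alone. Log2 differences of the clones from the controls were 0.50 for SPRR3, -0.17 for IVL and -0.02 for TGM1, the last 2 changing sign under an alternative setting, and at these levels a difference was not detectable.

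PI3 was dim in the clones as well. Its probe set 41469_at read 35.5, 18.2 and 13.8 in the 2-vector clones and the 1-vector clone, against 25.5 in the GFP clone and 48.3 in parental HT29. Probe set 203691_at read 2.5, 1.5 and 2.1, against 8.2 in the GFP clone and 24.1 in parental HT29. The 3 clones lay below both controls on 203691_at, where all 5 arrays were dim, and overlapped them on 41469_at.

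SFN was bright on every array. Its probe set 33322_i_at read 8310.5 and 2759.7 in the 2-vector clones and 3429.9 in the 1-vector clone, against 1254.1 in the GFP clone and 4147.9 in parental HT29. Probe set 33323_r_at read 7499.0, 2200.1 and 2567.5, against 846.2 in the GFP clone and 3150.7 in parental HT29, and 209260_at read 1592.9, 506.9 and 513.2, against 318.9 and 795.6. Parental HT29 lay between the 2-vector clones on all 3 probe sets, and the GFP clone lay below the other HT29 arrays. The log2 differences of clones from controls, 0.91, 1.09 and 0.56, stood beside SDs of 0.84, 0.96 and 0.94 among the clones (n = 3), and clones and controls overlapped. They were 1.76, 2.03 and 1.20 against the GFP clone alone, 0.05, 0.15 and -0.09 against parental HT29 alone, and 0.43, 0.54 and 0.01 without the first 2-vector clone. Between 2 vectors and 1 the differences were 0.48, 0.66 and 0.80, and -0.31, -0.22 and -0.02 without the first 2-vector clone.

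**Figure D2:**
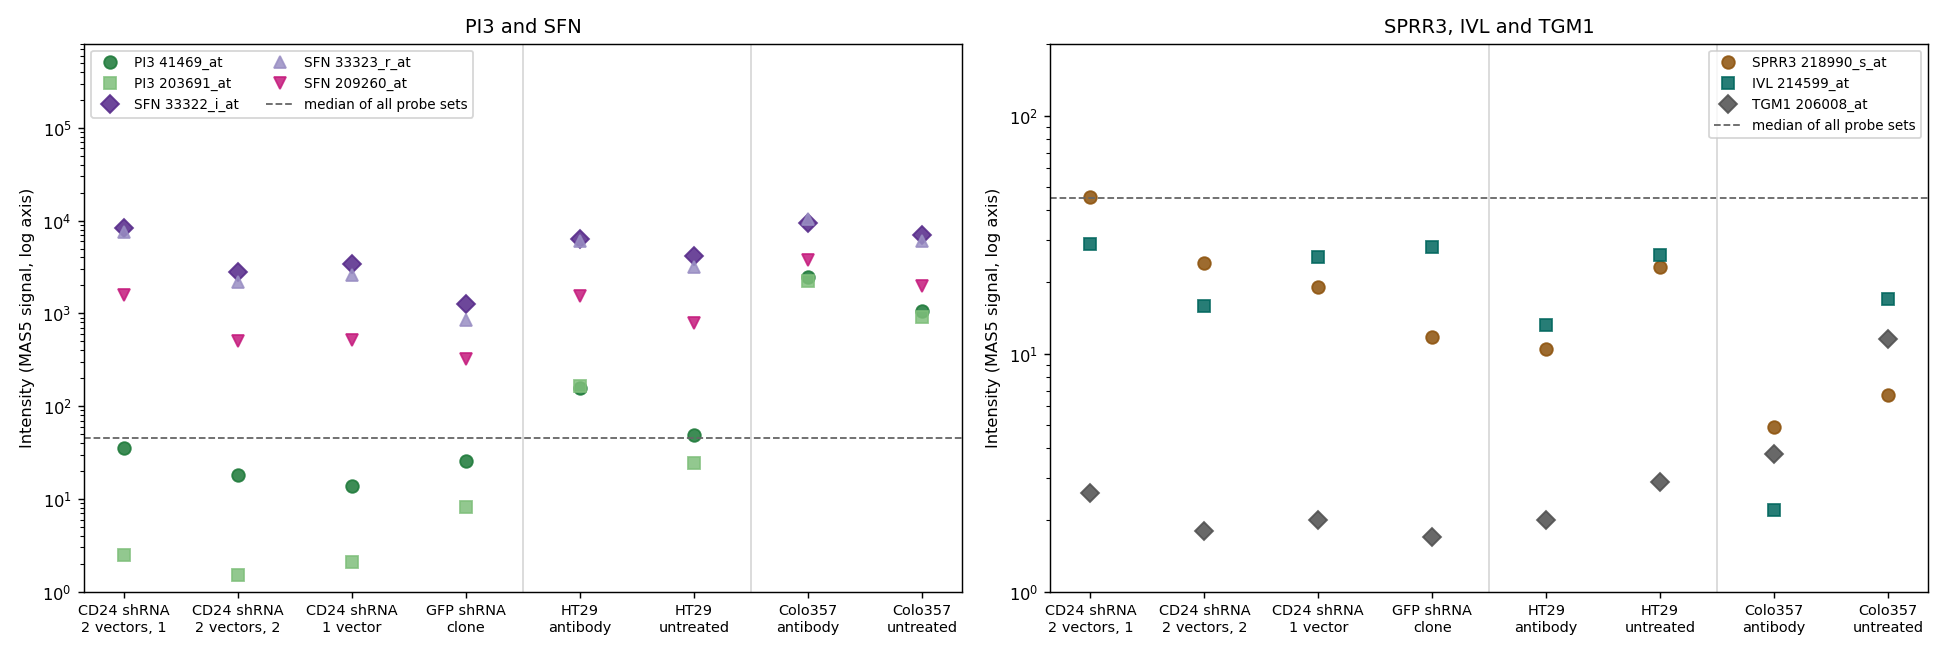
Intensity (MAS5 signal, log axis) on each of the 8 arrays of PI3 and SFN (left) and of SPRR3, IVL and TGM1 (right), 1 point per array and probe set. PI3 is high on both Colo357 arrays, SFN is bright throughout, and IVL and TGM1 stay below the dashed median of all probe sets (45.0).

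Of the 11 member probe sets, 6 had a mean over the 5 arrays above the median of all probe sets, and 3 of these 6, those of SPRR1A and SPRR1B, were at 2-fold or more with the clones above both controls. The same held for 4.55% of 11420 probe sets, and 15.2% were lower. SPRR1B and SPRR1A 213796_at passed that filter only through the clones, so nothing is read from this count. In the limma fit 0 of 11420 probe sets (0.0%) passed an adjusted p of 0.05, while 2211 had an unadjusted p under 0.05. Without the second 2-vector clone 1119 passed and without the GFP clone 28.

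In the GFP clone, SPRR1B and SPRR1A 213796_at were 0.98 and 0.93 above parental HT29 on the log2 scale, with 1 array on each side and no test, and the readings of 30.1 and 12.5 lay below the median of all probe sets. SFN was lower in the GFP clone, with log2 differences of -1.72, -1.88 and -1.29 on its 3 probe sets, at 2-fold or more as were 6.35% of 11773 probe sets, with 15.2% higher. Over all lists described below, 13 of 48 genes were at 2-fold or more higher and 6 lower in the GFP clone, where 15.7% and 7.19% of 7028 genes were. Of the 13, 4 were at or below the median of all probe sets in parental HT29 and passed the filter through the GFP clone. TGM2, a widely expressed transglutaminase, was 2.82 higher in the GFP clone, and TRIM29 differed by -4.33.

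**Figure D3:**
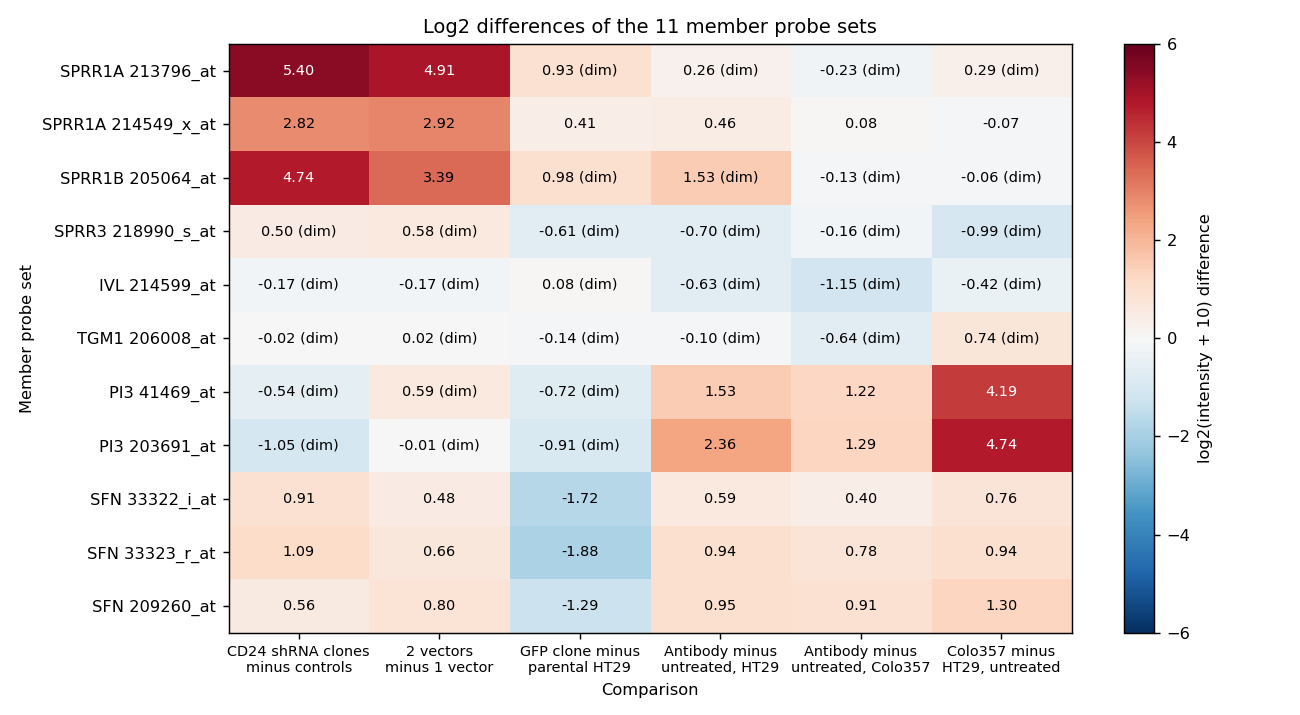
Log2 differences (log2(intensity + 10), first-named group minus second) of the 11 member probe sets in 6 comparisons; "dim" marks a mean over the compared arrays at or below the median of all probe sets. The SPRR1A and SPRR1B probe sets stand out in the 2 columns of CD24 shRNA clones, and PI3 in the antibody and Colo357 columns.

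The antibody comparison was not part of the rule that chose the members. PI3 rose with antibody over both lines. In HT29 probe set 203691_at read 164.9 with antibody and 24.1 without, and in Colo357 it read 2223.4 with antibody and 903.4 without. Probe set 41469_at read 158.8 with antibody and 48.3 without in HT29, and 2471.3 with antibody and 1056.7 without in Colo357. Treated arrays were higher in 2 of 2 lines on both probe sets, the only members at 2-fold or more above the filter. In HT29, 203691_at lay below the median of all probe sets without antibody (24.1) and passed the filter through the treated array. In HT29 4.64% of 11016 probe sets were at 2-fold or more higher and 8.13% lower, and in Colo357 10.2% of 11836 were higher and 14.0% lower. Over both lines, with the line as a block, limma gave log2 differences of 1.82 ± 0.37 (SE, adjusted p = 0.0169) and 1.38 ± 0.34 (adjusted p = 0.0353), where 5.63% of 11785 probe sets passed (1.74% higher, 3.89% lower).

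The PI3 call depended on the settings of the fit. It held with a pseudocount of 50 (adjusted p = 0.0261 and 0.0431) and was lost in every other alternative run, at adjusted p = 0.0588 to 0.911 for 203691_at and 0.0756 to 0.933 for 41469_at, the highest values coming from the fit without the block. The fit has 1 residual degree of freedom of 13.3 in all, the rest borrowed across probe sets. The dap spike-in read higher on the same arrays, at 595.9 with antibody and 277.1 without in HT29 and at 922.9 with antibody and 274.8 without in Colo357, and its part in the PI3 result was not tested.

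SFN read higher with antibody in both lines on all 3 probe sets but did not pass. Probe set 209260_at read 1544.5 with antibody and 795.6 without in HT29, and 3723.4 with antibody and 1980.5 without in Colo357, a limma log2 difference of 0.93 ± 0.34 (SE, adjusted p = 0.114). Probe sets 33323_r_at and 33322_i_at gave 0.86 ± 0.34 (adjusted p = 0.14) and 0.50 ± 0.34 (adjusted p = 0.393). SPRR1A 214549_x_at gave 0.27 ± 0.34 (adjusted p = 0.672). The remaining 5 member probe sets were below the filter and not tested.

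Among these, SPRR1B read 48.6 with antibody and 10.3 without in HT29, a log2 difference of 1.53, and 7.8 with antibody and 9.5 without in Colo357, a difference of -0.13. SPRR3 read 10.5 with antibody and 23.2 without in HT29 and 4.9 and 6.7 in Colo357. IVL read 13.2 with antibody and 26.0 without in HT29 and 2.2 and 17.0 in Colo357. TGM1 read at most 11.5 on these 4 arrays.

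Untreated Colo357 and untreated HT29 were compared with 1 array each and no test. PI3 was the member that differed most, at 903.4 in Colo357 and 24.1 in HT29 on 203691_at and at 1056.7 in Colo357 and 48.3 in HT29 on 41469_at, log2 differences of 4.74 and 4.19. At 2-fold or more, 14.9% of 11810 probe sets were higher in Colo357 and 11.8% lower. SFN 209260_at was 1.30 higher in Colo357, while SPRR1A and SPRR1B differed by at most 0.29 in size.

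Wider gene lists placed the members among other genes of squamous differentiation, each gene taken by its brightest probe set. Of 36 cornified envelope precursors, 20 were measured, and 11 of these were at or below the median of all probe sets on all 6 HT29 arrays, among them IVL, loricrin (LORICRIN), filaggrin (FLG), trichohyalin (TCHH), SPRR2B and SPRR2C. In the clones against both controls 6 passed the filter, and 5 were at 2-fold or more above both, SPRR1A, SPRR1B, PPL (1.33), ECM1 (1.11) and CALML5 (1.93), where 5.52% of 6916 genes were higher and 13.8% lower. SPRR1A, SPRR1B and CALML5 read below the median in both controls and passed through the clones, so the count is not evidence for the list. Without the 1-vector clone the count was 3, with no share over all genes given for that setting, so nothing is read from it.

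**Figure D4:**
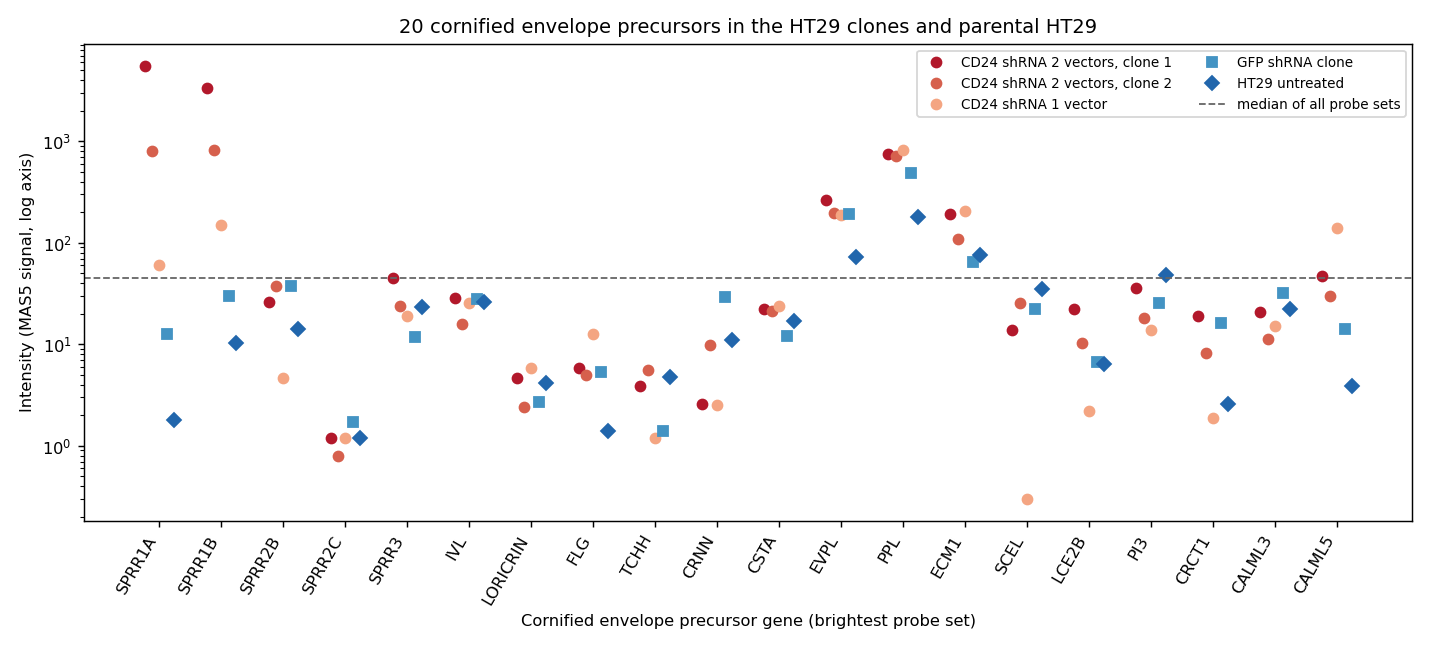
Intensity (MAS5 signal, log axis) of the 20 measured cornified envelope precursors in the 3 CD24 shRNA clones, the GFP clone and untreated HT29, 1 point per array. SPRR1A reads 5573.4 in the first 2-vector clone and 1.8 in untreated HT29, and most other precursors lie below the dashed median of all probe sets (45.0) in clones and controls.

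PPL, the plakin periplakin that links the envelope to keratin filaments, read 756.8 and 721.9 in the 2-vector clones and 822.2 in the 1-vector clone, against 485.1 in the GFP clone and 181.6 in parental HT29. CALML5, a calmodulin-like protein of differentiating keratinocytes, had another order than SPRR1B, at 47.0 and 29.6 in the 2-vector clones and 140.7 in the 1-vector clone, against 14 in the GFP clone and 3.9 in parental HT29. Of 12 squamous keratins measured, 3 passed the filter, and KRT13 was lower in the clones (log2 difference -1.03). KRT13 read 77.0, 68.7 and 80.2 in the 2-vector clones and the 1-vector clone. It read 99.4 in the GFP clone and 265.3 in parental HT29, which themselves differed by -1.33. Of 15 desmosome and junction genes, 6 passed the filter, with DSP, desmoplakin, lower (-1.05). DSP read 292.3, 549.3 and 203.6 in those clones. The GFP clone read 818.1 and parental HT29 554.5, close to the second 2-vector clone.

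Over all lists 54 of 109 measured genes passed the filter, 9 of them higher and 6 lower in the clones, where 5.52% and 13.8% of all 6916 genes were, with a median difference of 0.36 against 0.03 for those genes. Of the 9, SPRR1A, SPRR1B, CALML5 and FOSB were at or below the median of all probe sets in both controls and passed the filter through the clones, so nothing is read from this count. CST6, cystatin M/E, an inhibitor of epidermal cathepsins, read 1219.1 and 816.8 in the 2-vector clones and 523.8 in the 1-vector clone, against 416.8 in the GFP clone and 53.5 in parental HT29. WFDC2, which like PI3 has a WAP-type inhibitor domain, read 716.0 and 534.1 in the 2-vector clones and 976.4 in the 1-vector clone, against 432.3 in the GFP clone and 55.0 in parental HT29. The log2 differences from both controls were 2.31 for CST6 and 2.11 for WFDC2, and from the GFP clone alone 0.93 and 0.72, under 2-fold. The AP-1 subunit FOSB differed by 2.08. EHF, an ETS factor of epithelia, read 17.5, 157.4 and 48.1 in the clones, against 626.5 in the GFP clone and 420.1 in parental HT29. CTSV (-1.33), the 14-3-3 gene YWHAZ (-1.27) and KLF5 (-1.07) were the other lower genes named, of which CTSV (-0.65) and KLF5 (-0.94) were under 2-fold without the GFP clone and KLF5 (-0.90) also without the first 2-vector clone. Without the GFP clone 16 list genes were higher, with no share over all genes given for that setting, so nothing is read from it.

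Of the squamous regulators, 4 AP-1 subunits were at 2-fold or more higher with 2 vectors than with 1, in a description with no test, while FOS (0.94), JUND (0.21) and JUNB (-0.20) were not. FOSL1 read 1864.8 and 593.8 in the 2-vector clones and 227.2 in the 1-vector clone, with 204.0 in the GFP clone and 276.2 in parental HT29. FOSB read 156.8 and 56.2 in the 2-vector clones and 11.1 in the 1-vector clone, FOSL2 232.0 and 87.4 against 41.6, and JUN 1268.9 and 875.9 against 473.2. These were the 4 regulators called higher, of 18 that passed the filter, where 6.14% of 6616 genes were higher and 3.48% lower. FOSB and FOSL2 were below the median of all probe sets in the 1-vector clone and passed through the 2-vector clones, so nothing is read from this count. Without the first 2-vector clone FOSL2 (0.92) and JUN (0.87) were under 2-fold, and FOSB and FOSL1 differed by 1.65 and 1.35. The GFP clone read 773.3 for JUN, above the 1-vector clone. CEBPA (101.1 and 91.5 in the 2-vector clones, 419.4 in the 1-vector clone) and TRIM29 (428.0 and 521.5, 1312.4) were lower, as were CALML5 and, among transglutaminases, TGM2 (578.0 and 1171.3, 1779.0). FOSL1 shared with SPRR1B the order of the 3 CD24 shRNA clones but not that of the controls. A link between FOSL1 and SPRR1B was not tested.

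The same lists were read for the antibody. In HT29 12 of 50 list genes were at 2-fold or more higher and 1 lower, where 5.31% and 7.59% of 6644 genes were, and in Colo357 15 of 65 were higher and 8 lower, where 10.8% and 13.1% of 7210 genes were. Of those higher, 3 in HT29 and 2 in Colo357 were at or below the median of all probe sets without antibody and passed the filter through the treated array. Of 65 list genes tested over both lines, 6 rose and 0 fell in the limma fit, against 1.74% of all probe sets higher and 3.89% lower. They were PI3, the extracellular matrix protein ECM1 (1.86 ± 0.34, SE, adjusted p = 0.0123), the acid sphingomyelinase SMPD1 (1.67 ± 0.34, 0.017), the barrier transcription factor KLF4 (1.59 ± 0.35, 0.0223), the cysteine protease CTSV (1.53 ± 0.36, 0.0293) and JUNB (1.28 ± 0.35, 0.0488). SMPD1 was below the median of all probe sets without antibody (27.0 in HT29, 35.7 in Colo357) and passed the filter through the treated arrays. The count is of genes and the shares are of probe sets, so nothing is read from this count. The list median was 0.19 and that of all probe sets -0.05. With 1 probe set per gene in the fit, 10 of 7153 genes were higher and 15 lower. None of the 6 passed there, at adjusted p = 0.0606 to 0.0978. Whether the members and the other list genes differed in response was not tested.

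By gene order on chromosome 1, SPRR1A and SPRR1B have 1 protein-coding gene, SPRR3, between them. Of 62 protein-coding genes from S100A11 to S100A1, the stretch that holds the epidermal differentiation complex, 27 were measured and 8 passed the filter in the clones against both controls. SPRR1A, SPRR1B and the calcium-binding protein S100A13 (1.41) were higher at 2-fold or more with no overlap, and 0 were lower, where 5.52% of all genes were higher and 13.8% lower. SPRR1B chose the set, it and SPRR1A passed the filter through the clones, and the stretch was chosen after values had been seen, so nothing is read from this count. The nearest measured genes, IVL before, SPRR3 between and SPRR2B after the pair, differed by -0.17, 0.50 and -0.20.

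**Figure D5:**
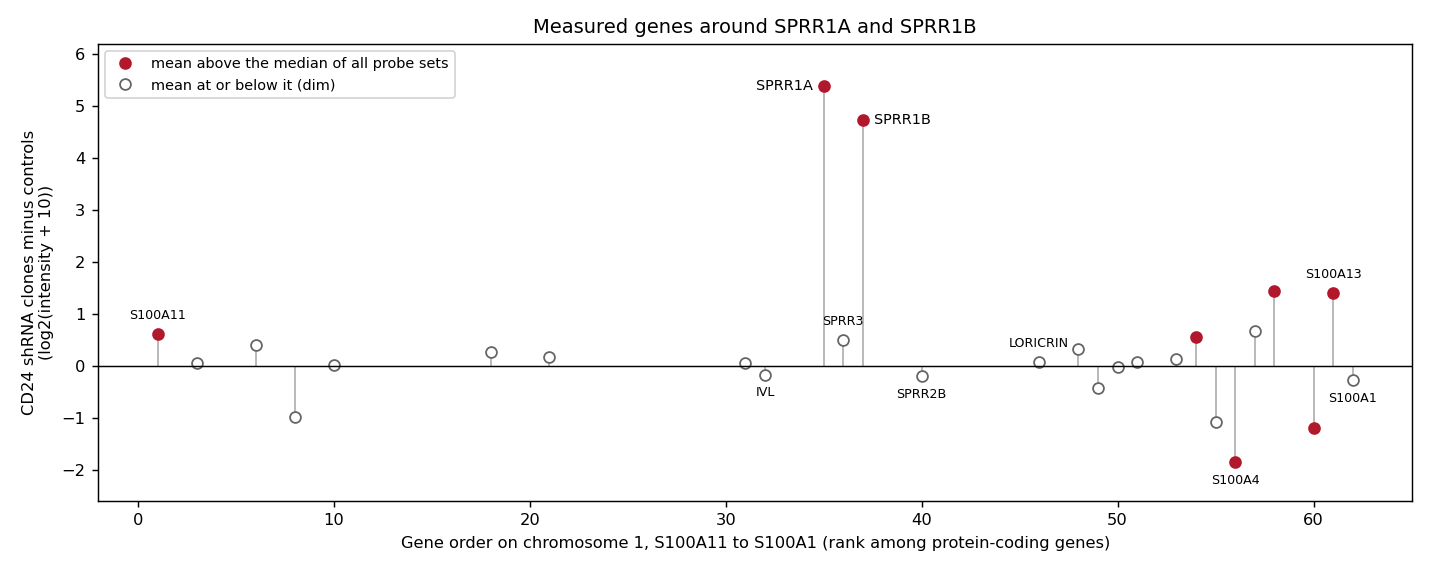
Log2 difference (log2(intensity + 10)) of the CD24 shRNA clones from the GFP clone and parental HT29 for the 27 measured genes from S100A11 to S100A1, in gene order. SPRR1A and SPRR1B reach 5.40 and 4.74, while SPRR3 between them is at 0.50 and dim.

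The genes whose pattern was most like that of SPRR1B were sought among 7072 genes with a reading above 100 on at least 1 array. Across the 8 arrays the Pearson correlation of log2 values was 0.980 for SPRR1A, 0.969 for the hyaluronidase HYAL2, 0.960 for UBAP1, a subunit of the ESCRT-I sorting complex, 0.959 for COMMD3 and 0.954 for the hydrolase ABHD2, and across the 6 HT29 arrays 0.985, 0.961, 0.962, 0.954 and 0.966. The arrays share clones and, for the first 2-vector clone, the deviating RNA controls, so these values are descriptions. HYAL2 read 900.1 and 584.0 in the 2-vector clones and 501.2 in the 1-vector clone, against 368.9 in the GFP clone and 251.7 in parental HT29, a much smaller span than that of SPRR1B. ABHD2 read 1232.2 and 745.5 in the 2-vector clones and 452.4 in the 1-vector clone, against 265.5 and 267.8. Among the members, SFN correlated at 0.013 and PI3 at -0.584 across the 8 arrays, and at 0.417 and -0.331 across the 6 HT29 arrays. The 2 SPRR1A probe sets correlated at 0.988 with each other, the 2 of PI3 at 0.989 and the 3 of SFN at 0.938 to 0.995.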

How the data were processed

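The values are intensities deposited by the authors, MAS5 signals per the submitters' processing notes (version, background handling and detection calls not given in the sources used here). They were used as deposited. Single symbols came from the platform annotation, updated through Entrez IDs in a RefSeq table of GRCh38.p14 for 19052 of 19064 probe sets. Log2(intensity + 10) was tested with limma 3.58.1 in R 4.3.3 (lmFit, eBayes; two-sided, Benjamini-Hochberg over all probe sets) on probe sets whose mean over the compared arrays exceeded 45.0, the median over 22215 probe sets (controls left out). The added 10 understates differences of dim genes. Fits were tested on simulated data. Antibody p-values set the mean response of the 2 lines against a residual from their difference, with variance borrowed across probe sets. They do not measure the spread between cultures, and the number of arrays limits the precision. Comparisons with 1 array on a side have no test. Members and lists were chosen with earlier results of these data known. Named genes are all members, and per comparison up to 4 list genes per direction with the largest difference at 2-fold or more, plus the 5 genes most correlated with SPRR1B. PPL, ECM1, KRT13, DSP, FOS, JUND, JUNB, SMPD1 and the chromosome neighbours were named after their values were seen. Alternatives were the pseudocounts 1 and 50, quantile normalization, no filter, 1 probe set per gene, another design, and leaving out arrays.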

Additional observations from a re-analysis of the deposited data

Results flagged for a closer look

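The SPRR1B differences under the antibody had opposite signs in the 2 lines, of which the one in Colo357 gives no direction at these levels. In HT29 it read 48.6 with antibody and 10.3 without, a log2 difference of 1.53, and in Colo357 it read 7.8 with antibody and 9.5 without, a difference of -0.13. Each line had 1 treated and 1 untreated array, both Colo357 readings lay near the 25th percentile of all values (10.1), and the difference between the lines was not tested.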

How the results depend on the processing

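With antibody over both lines, 663 probe sets passed limma with the line as a block. The count was 439 with a pseudocount of 50, 79 with a pseudocount of 1 and 25 with 1 probe set per gene. It was 0 under quantile normalization, without the filter, in the fit of all 8 arrays and without the replicate block (line), where 2513, 3366, 1127 and 674 had an unadjusted p under 0.05. The cause was not tested, apart from the fewer probe sets that enter with 1 per gene. Leaving out a line leaves no residual degrees of freedom, so it was not run. For the CD24 shRNA clones against both controls 0 probe sets passed, 3 with a pseudocount of 50, and 0 to 1119 when 1 array was left out. Where 1 control was left, it was assumed to vary like the other arrays. No replicate numbers are in the labels, so no other pairing was possible. Quantile normalization moved the median difference of all probe sets in the clones to 0.09, against -0.07 as deposited. No member past 2-fold and above the filter changed sign in any alternative. SPRR1B with antibody in HT29 was 0.71 with a pseudocount of 50, and PI3 203691_at in the clones was -1.05, with -2.34 and -0.34 at pseudocounts of 1 and 50. Levels below the median of all probe sets cannot be told from background here.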

Other observations

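Several squamous genes outside the set read high in Colo357, in a comparison of 1 array each with no test. Of 62 list genes above the filter, 29 were at 2-fold or more higher in untreated Colo357 and 8 lower, where 15.8% and 11.7% of 7147 genes were. Of the 29, 16 were at or below the median of all probe sets in HT29 and passed the filter through Colo357, so the count says nothing of the lists as a whole. The basal keratin KRT5 read 3640.3 in Colo357 and 1.9 in HT29, the receptor NOTCH3 1561.0 and 4.6, the envelope precursor CSTA, cystatin A, 1924.6 and 16.9, and the transcription factor TFAP2A 1871.9 and 34.1. The matriptase gene ST14 was lower in Colo357, at 199.9 against 1310.6 in HT29. IVL, TGM1, SPRR1A and SPRR1B, by their brightest probe sets, lay below the filter and so could not be among the higher genes.

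Under the antibody, Colo357 had FOSL1 at 1013.8 with antibody and 95.5 without, the stress keratin KRT16 at 730.9 and 78.3, and JUN at 1074.2 and 161.0, while SERPINB3, a squamous cell serpin, read 67.5 with antibody and 409.9 without. HT29 had KRT13 at 1150.4 with antibody and 265.3 without, KRT15 at 166.2 and 26.6 and CST6 at 271.8 and 53.5. FOSL1 in Colo357 reached 1013.8 with SPRR1B at 7.8 and SPRR1A 213796_at at 2.3 on the same array. A link between FOSL1 and these genes was not tested.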
